A study of Picea abies with 36 samples.

Results

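The gene models described here are 200 of the 70736 in a Norway spruce (Picea abies) hypocotyl count table. They were much more abundant after auxin than after a mock preparation, and were also more abundant after auxin given together with a cytokinin. By the measure defined below, they were within 2-fold of the mock level after the cytokinin alone. They were chosen from these same libraries. For each model the count per 1000000 reads of the column (CPM) was averaged over the 9 libraries of a treatment, and the log2 ratio to Mock was formed after adding 0.5 CPM to both means. The ratio is called i for the auxin IAA, c for the combination and b for the cytokinin BAP. A model was taken when the highest of the 4 means was at least 1 CPM, i and c were both at least 2 (4-fold) and b lay between -1 and 1 (2-fold). The rule was met by 209 models, and the 200 with the largest value of the smaller of i and c were kept.

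Auxin acts in land plants through receptors that, with the hormone bound, mark the Aux/IAA repressors for breakdown, and this frees the auxin response factors to switch genes on. Cytokinins act through a relay of phosphate groups from membrane receptors to response regulators in the nucleus. Both hormones act in stems on the cambium, the layer that makes wood and bast, and they oppose or reinforce each other depending on the organ and the gene. Most of this is known from Arabidopsis. The files do not pair the spruce identifiers with gene names, so no role can be given for a member, lists of pathway genes could not be drawn up, and the labelled tissue could not be checked against its markers.

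Seedlings about 2 weeks old had lanolin put on the middle of the hypocotyl, the stem below the seed leaves, a single time. The lanolin held 135 mM BAP (6-benzylaminopurine), 50 mM IAA (indole-3-acetic acid), both at the same concentrations, or was labelled Mock, so the carrier was common to all groups. Hypocotyls were taken at 5, 10 or 15 days from then, with 3 libraries for each of the 12 groups, 36 in all. Nothing in the labels tells whether the 3 libraries of a group are different plants or pools, so a p-value measures only the spread between libraries, which may be technical.

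Library totals ran from 12531117 to 22280720 reads, and 3 reads in a library stood for 0.137 to 0.232 CPM after TMM scaling, the scale of the levels below. The collection number in the column names, from 1 to 3, was taken to run with the days of collection, although the table does not say so, and each statement on a single day rests on that reading. All 200 members passed the filter on low counts, as did 38239 of the 70736 models. The members carried 198 different identifier stems (the part before the letter g). The tissue was measured in bulk, where fewer cells of a type and less RNA per cell cannot be told apart.

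The values that chose the members are given as a description, with no test. The median i was 3.33, from 2.08 to 9.13, the median c was 2.73, from 2.07 to 7.06, and the median b was 0.35, from -0.86 to 0.9985. Mock levels were low, with a mean below 1 CPM at 121 members and no Mock read at all at 10 of them. With IAA, 33 members averaged at least 100 CPM. The combination reached at least the IAA level, with c no smaller than i, at 65 members, and stayed under it at 135. Rises of at least 16-fold on this scale, an i or c of 4, were found at 66 members with IAA and at 21 with the combination. BAP alone left b above 0 at 158 members and at or under 0 at 42. The added 0.5 CPM shrinks ratios at low levels, so b can hide larger folds there. Over 9 libraries each, MA_9396827g0010 held 8 Mock and 73 BAP reads, and MA_10561g0010 held 32 and 3.

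**Figure D1:**
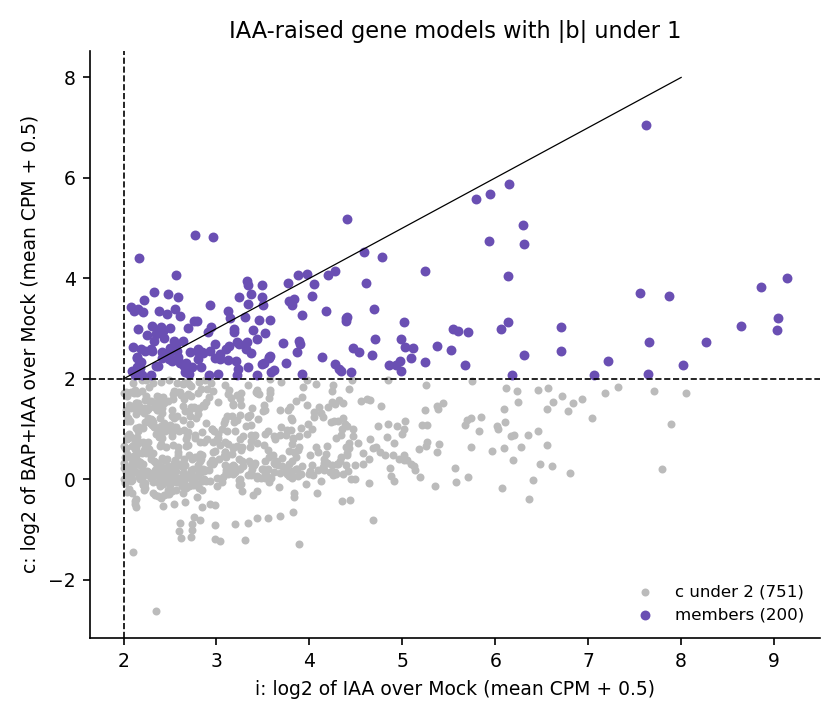
Log2 ratio to Mock of the 9-library means (CPM + 0.5) with IAA alone (i, horizontal) and with BAP+IAA (c, vertical) for gene models with i of at least 2 and b between -1 and 1, with the limits of 2 as dashed lines and equality as a solid line. The 200 members lie above the horizontal limit and mostly under the line of equality (135 of 200), and 751 models lie under the limit.

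Such models were a minority of those that IAA raised. Of 960 models with i of at least 2, b within its limits and enough level, 209 (21.8%) also had c of at least 2. The other 751 had a median i of 2.88 and a median c of 0.55. Among them c lay between 1 and 2 at 239 models, between 0 and 1 at 406, and below 0 at 106. Among the 200 kept, those just inside the limits were MA_103368g0010 with i of 2.08, MA_2126824g0010 with c of 2.07 and MA_166367g0020 with b of 0.9985. Of the 9 models that met the rule but were left out by the number kept, MA_190437g0010 had i of 2.01 and MA_273264g0010 had c of 2.0002. Just outside stood MA_132034g0010 with i of 1.998, MA_205344g0010 with c of 1.99 and MA_9132531g0010 with b of 1.002.

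As a share of the library, reads of the 200 members together made up 0.0824% ± 0.0299, 0.0593% ± 0.00853 and 0.0669% ± 0.00931 in Mock at 5, 10 and 15 days (SD, n = 3 each). With IAA the share was 1.5% ± 0.0265, 1.48% ± 0.115 and 0.991% ± 0.069 on the same days. With the combination it was 0.879% ± 0.127, 0.553% ± 0.0863 and 0.407% ± 0.0709. Every IAA and BAP+IAA library lay above every Mock and BAP library, a gap that follows from the rule and supports nothing by itself. On each day the 3 BAP+IAA libraries lay under the 3 IAA libraries. With BAP alone the share was 0.104% ± 0.0151, 0.11% ± 0.0123 and 0.106% ± 0.0167. A few abundant members weigh on these sums, since the 10 highest held 40.55% of the summed member level with IAA and 39.74% with the combination. The median member gives another view, at 18.4, 15.6 and 14.6 CPM with IAA and 8.32, 8.08 and 8.78 CPM with the combination. Mock medians were 0.554, 0.46 and 0.559 CPM and BAP medians 0.492, 0.724 and 0.983 CPM. Under the combination the summed share was lower on each later day, while the median member stayed between 8.08 and 8.78 CPM.

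**Figure D2:**
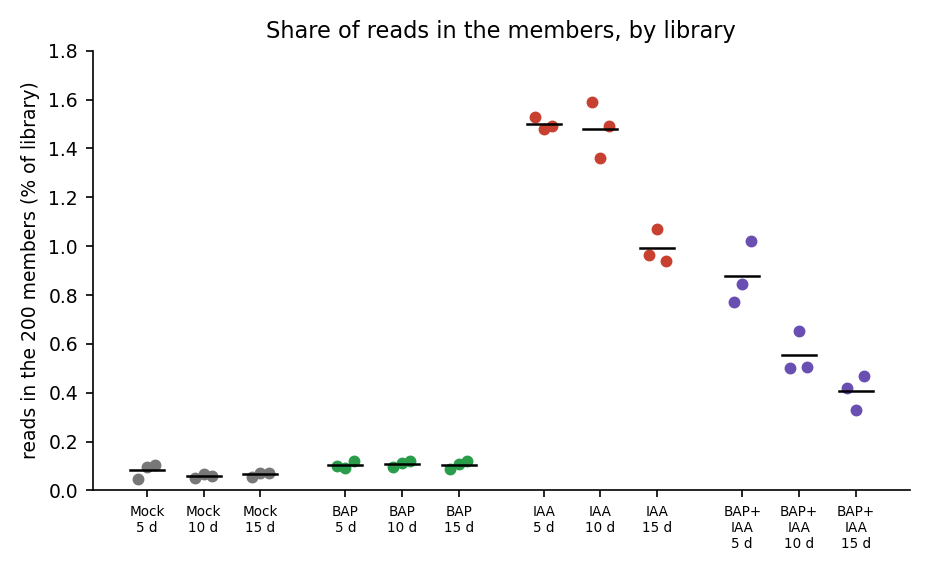
Share of each library's reads (%) that fell in the 200 members, one point for each of the 36 libraries, with a bar at the mean of each group of 3. Mock and BAP groups average 0.0593% to 0.11%, the combination 0.407% to 0.879% and IAA 0.991% to 1.5%. The gap of the last 2 to Mock and BAP follows from the rule.

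Counted library by library, all 9 IAA libraries lay above all 9 Mock libraries at 156 members, where 7.65% of all tested models do so. All 9 BAP+IAA libraries lay above all 9 Mock libraries at 147 members (10.7% of all tested models), and all 18 lay above all 18 Mock and BAP libraries at 77 (0.745%). BAP libraries lay wholly above Mock at 2 members (4.46%). These counts follow from the rule and support nothing by themselves. The combination lay wholly below IAA at 29 members, where 2.87% of all tested models do so, and wholly above it at 0 members (1.9%). Fold changes from pooled levels, with a floor of 3 reads over the 9 libraries, had a median of 24.9 with IAA and 15.8 with the combination. The level with the combination was a median of 0.771 times that with IAA, with an interquartile range of 0.343 to 1.1. It was within 2-fold of the IAA level at 116 members, more than 2-fold below it at 71 and more than 2-fold above it at 13.

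Past the same threshold that is used for the tests below (edgeR adjusted p under 0.05), the members higher with IAA than with Mock numbered 180, 184 and 181 at 5, 10 and 15 days, where 23.1%, 21.3% and 18.1% of all tested models were higher. With the combination they numbered 178, 189 and 183 (21.4%, 23% and 23.2% of all tested models). With BAP 2, 27 and 29 were higher (11.2%, 14.2% and 15.8%) and 0, 1 and 4 lower (14%, 16.4% and 16.6%). The combination was lower than IAA at 75, 66 and 81 members (7.59%, 16.8% and 16.7%) and higher at 11, 49 and 40 (6.2%, 14.2% and 14.2%). The rule used the means behind all of these comparisons, so they are descriptions. The averages hide days that differ. An i of at least 2 was reached on all 3 days by 109 members, on 2 days by 52 and on a single day by 39. The same held for c at 97, 78 and 25 members. The limits on b held on all 3 days at 113 members, on 2 days at 74 and on a single day at 13. All conditions of the rule were met on every day by 31 members, on 2 days by 58, on a single day by 94 and on none by 17, whose averages alone met them.

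The largest value of the smaller of i and c belonged to MA_10330250g0010. With IAA it stood at 210, 209 and 286 CPM in the 3 libraries at 5 days, at 73.4, 106 and 111 CPM at 10 days, and at 66.6, 76.0 and 160 CPM at 15 days. In the combination it stood at 33.1, 83.0 and 263 CPM at 5 days, at 39.1, 141 and 14.7 CPM at 10 days, and at 139, 83.8 and 50.1 CPM at 15 days. The highest of the 18 Mock and BAP libraries held 0.462 CPM. The libraries given IAA, alone or combined, thus lay far above those without it, a gap by which this member was chosen. IAA and combination libraries overlapped on each day, and the combination spread widely within a day. From pooled levels it was 667-fold higher with IAA and 469-fold higher with the combination than with Mock. None of its changes between days passed the threshold with IAA (15 against 5 days, log2 change -1.22 ± 0.52 SE, edgeR adjusted p = 0.063) or with the combination (-0.48 ± 0.52, adjusted p = 0.56).

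The most abundant member under IAA was MA_6810759g0010, at 909, 948 and 1132 CPM at 5 days, 2133, 1677 and 1894 CPM at 10 days and 852, 1025 and 673 CPM at 15 days. With the combination it was at 366, 368 and 365 CPM at 5 days, 352, 255 and 225 CPM at 10 days, and 158, 99.4 and 154 CPM at 15 days. Mock was at 18.8 to 94.0 CPM and BAP at 42.3 to 161 CPM over the 9 libraries each. Here the combination lay under every IAA library. Its 15-day libraries lay within the BAP range over all days, but above the 15-day BAP libraries, which held 42.3, 61.8 and 83.3 CPM. With the combination the level fell from 5 to 15 days (log2 change -1.42 ± 0.38 SE, edgeR adjusted p = 0.0079), whereas with IAA the change did not pass (-0.23 ± 0.37, adjusted p = 0.66). The difference between these changes did not pass either (-1.19 ± 0.53, adjusted p = 0.15). The next most abundant member, MA_5009001g0010, ran close beside it, at 784 ± 68.2, 1298 ± 165 and 604 ± 79.6 CPM with IAA and 312 ± 7.05, 227 ± 65.8 and 117 ± 40.5 CPM with the combination (SD, n = 3 each). Whether these are near-identical copies whose reads the authors' counting could split is not known, so their separate levels are uncertain.

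Changes between days within a treatment were not used by the rule and were tested over all 38239 models. Under IAA the members moved apart after 5 days. From 5 to 10 days 51 members rose and 77 fell (edgeR's quasi-likelihood test, Benjamini-Hochberg adjusted p under 0.05), or 25.5% and 38.5% of the 200, where 17.1% and 12.9% of all tested models rose and fell. From 5 to 15 days 51 rose and 80 fell (22.2% and 17.5% of all tested models). The share that rose was thus close to the background, and the share that fell, 40%, was above it. The median member changed by -0.46 on the log2 scale from 5 to 15 days, against 0.04 for all tested models. A model can meet the rule through 1 strong day, so these shares are not those of a set chosen evenly over the days. From 10 to 15 days 13 rose and 20 fell (2.13% and 2.67%). That last pair of counts was small and unsteady. The rises numbered 7 without replicate 1 of IAA at 10 days, 6 without replicate 3 of it and 7 without replicate 3 of IAA at 15 days, and the falls 12 and 11 without the first and the last of these. DESeq2 called 6 and 8.

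Under the combination 25 members rose and 36 fell from 5 to 10 days (5.15% and 4.08% of all tested models), and 47 rose and 69 fell from 5 to 15 days (12% and 10.5%). In shares of the 200, the counts at 15 days are 23.5% and 34.5%, both above the background. From 10 to 15 days 18 rose and 29 fell (4.82% and 3.84%). The falls from 5 to 10 days numbered 18 without replicate 3 at 5 days, and 21 and 20 without replicates 1 and 3 at 10 days. Without replicate 1 at 15 days the rises numbered 31 from 5 to 15 days and 5 from 10 to 15 days, and the later falls 19. Without replicate 3 at 10 days the later rises numbered 8, and without replicate 2 at 15 days the later falls numbered 16. DESeq2 called 6 of the later rises.

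**Figure D3:**
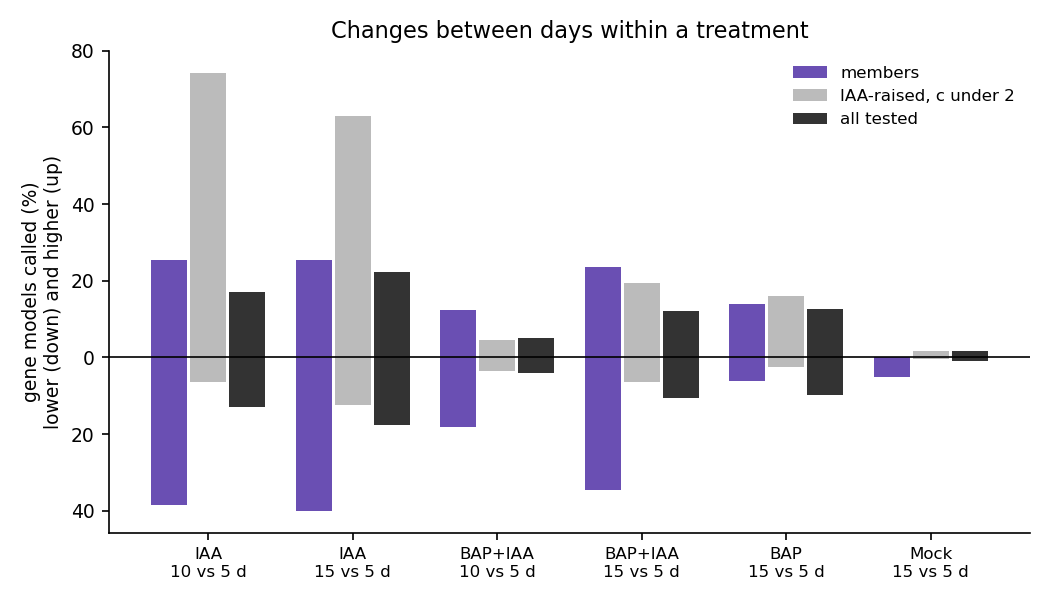
Percent of gene models called higher (up) and lower (down) between days within a treatment (edgeR adjusted p under 0.05), for the 200 members, for the 751 IAA-raised models with c under 2 and for all 38239 tested models. Under IAA 25.5% of members rose and 40% fell from 5 to 15 days, while the 751 models mostly rose (63.1%).

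Fewer members were called in Mock, where the rule favours low levels (medians of 0.46 to 0.559 CPM) and changes are hard to call. In Mock 0 members rose and 10 fell from 5 to 15 days (1.58% and 0.928% of all tested models). The falls, 5% of the 200, were above the background. At an unadjusted p under 0.05 in edgeR there were 10 rises, or 5% of the 200, and 21 falls, where 8.32% and 6.59% of all tested models rose and fell. DESeq2 called 5 rises and 16 falls, and edgeR called 1 rise without replicate 3 of Mock at 5 days. With BAP alone 28 members rose and 12 fell from 5 to 15 days (12.6% and 9.84% of all tested models), 14% and 6% of the 200. The rises numbered 14 and 17 without replicates 1 and 2 of BAP at 5 days and 16 without replicate 3 at 15 days, and DESeq2 called 51 rises and 19 falls. The background shares are edgeR's with all libraries. None was counted for DESeq2 or with a library left out, so an excess among members cannot be read from those recounts. The BAP medians given above stayed under 1 CPM throughout.

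The 751 models that IAA raised but that did not reach the limit with the combination took another course. Under IAA 557 of them (74.2%) rose and 49 (6.52%) fell from 5 to 10 days, and 474 (63.1%) rose and 93 (12.4%) fell from 5 to 15 days. Their median level with IAA was 3.02 CPM at 5 days, 11.4 CPM at 10 days and 9.75 CPM at 15 days, where the members were at 18.4, 15.6 and 14.6 CPM. The median member was thus highest on the first collection day, and the median of the other IAA-raised models at 10 days. The difference between the lists was not tested, and the limit on c that divides them is itself a mean over days. With the combination their medians were 0.439, 0.669 and 0.92 CPM, and in Mock they were 0.16 CPM at 5 days and 0.214 CPM at 15 days.

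The members were divided by their call under IAA to show the levels behind these counts. The 80 members that fell from 5 to 15 days had medians of 35.2, 9 and 6.75 CPM with IAA at 5, 10 and 15 days, and 13, 8.86 and 7.05 CPM with the combination. The 51 that rose had medians of 3.26, 11.9 and 19.1 CPM with IAA and 2.38, 4.08 and 7.5 CPM with the combination. The 69 not called had medians of 23.8, 25.3 and 24.9 CPM with IAA and 15.3, 13.3 and 12 CPM with the combination. The IAA levels chose these divisions. The combination libraries did not, and their medians for the members that fell or rose went the same way over a smaller range. A division by the IAA calls itself favours a wider range with IAA, so nothing is concluded from the smaller range.

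The 2 treatments share no library, so their day courses can be set against each other. Of the 51 members that rose under IAA from 5 to 15 days, 30 (58.8%) also rose under the combination, 2 fell and 19 were not called, where 28.2% of all tested models that rose under IAA also rose under the combination. Of the 80 that fell under IAA, 50 (62.5%) also fell under the combination, 4 rose and 26 were not called, where the share among all tested models was 36.2%. Of the 69 not called under IAA, 13 rose and 17 fell under the combination (18.8% and 24.6%, against 8.77% and 5.69% of all tested models not called under IAA). Members were thus called more often under the combination even where IAA gave no call. The higher shares therefore do not by themselves show closer agreement between the 2 courses. Across the 200 members the log2 changes from 5 to 15 days under the 2 treatments had a Pearson r of 0.607 and a Spearman rho of 0.615, against 0.445 and 0.455 across all tested models. Members are not independent samples and rest on the same 12 libraries, so this is a description without a p-value.

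**Figure D4:**
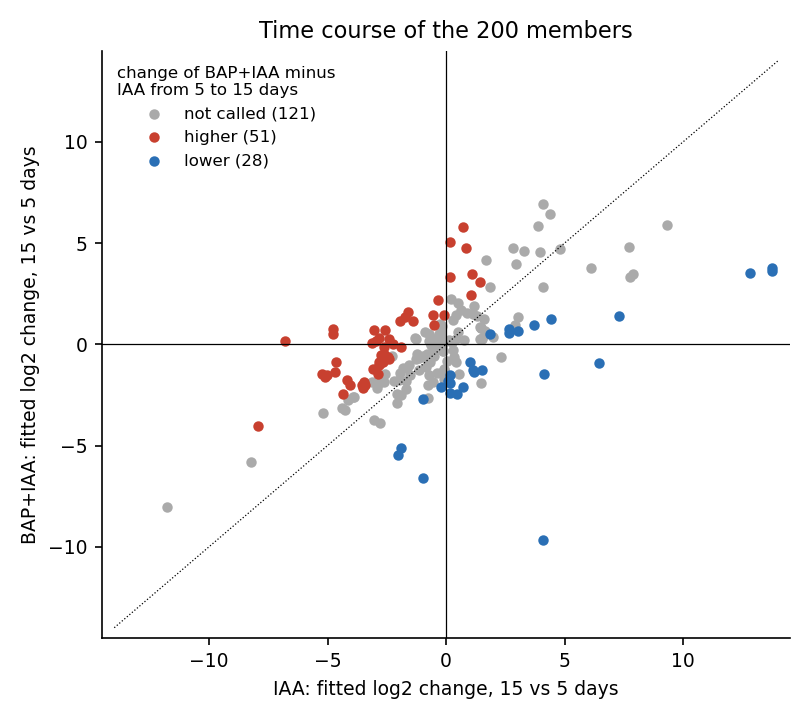
Fitted log2 change from 5 to 15 days for each of the 200 members under IAA (horizontal) and under BAP+IAA (vertical), with a dotted line at equal change. Colours mark members whose change under the combination exceeded that under IAA (51, red) or fell short of it (28, blue) past edgeR's adjusted threshold, and fitted values beyond about 10 belong to members with a group at or near 0 reads.

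The members with the largest falls under IAA were nearly gone after 5 days. MA_274624g0010 stood at 112, 90.0 and 103 CPM at 5 days, at 0.989, 0.361 and 0.0594 CPM at 10 days and at 0.0586, 0 and 0 CPM at 15 days, a single read in the 3 last libraries. The fall from 5 to 15 days was 4766-fold in pooled reads, with a 95% exact binomial interval of 855 to 188295 for counting error only (fitted log2 change -11.78 ± 0.67 SE, edgeR adjusted p = 4.3e-15). Given both hormones, it stood at 46.1, 59.3 and 60.4 CPM, then 4.02, 6.22 and 3.65 CPM, then 0.184, 0.277 and 0.145 CPM. All 3 libraries of a day lay below all 3 of the day before in the combination, and the fall passed as well (-8.04 ± 0.54, adjusted p = 4.7e-12). It also fell in Mock, from 0.201, 4.08 and 3.24 CPM at 5 days to 0, 0.063 and 0 CPM at 15 days (-6.37 ± 1.23, adjusted p = 0.0021), so this course was not confined to hormone-treated hypocotyls. With BAP alone it fell as well, from 5.62, 1.63 and 1.64 CPM to 0.255, 0.193 and 0 CPM (-4.17 ± 0.85, edgeR adjusted p = 6e-04). At 10 days the combination had kept more of the starting level than IAA (difference of the log2 changes 4.25 ± 0.67, adjusted p = 3.8e-05). From 5 to 15 days the difference did not pass (3.735 ± 2.23, edgeR adjusted p = 0.31).

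MA_89694g0010 followed a like course with IAA and with the combination, and had too few Mock reads to show a course there. It stood at 17.9, 13.4 and 13.5 CPM with IAA at 5 days and at 0.0587, 0.0613 and 0 CPM at 15 days, a 350-fold fall in pooled reads (exact 95% interval 96.6 to 2896, fitted log2 change -8.22 ± 0.46 SE, edgeR adjusted p = 3.9e-14). With the combination it stood at 6.76, 7.94 and 5.66 CPM at 5 days and at 0.122, 0 and 0.217 CPM at 15 days (-5.81 ± 0.46, adjusted p = 7.7e-10). The libraries of 5 days did not overlap those of 15 days in either treatment, while 10 and 15 days overlapped in both. No BAP library held a read of it, and Mock held 2 reads over 9 libraries, all at 5 days. From 5 to 10 days it lost less under the combination than under IAA (difference 3.19 ± 0.83, adjusted p = 0.01). From 5 to 15 days the difference did not pass (2.405 ± 1.417, edgeR adjusted p = 0.3).

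The largest rises under IAA belonged to a pair of members that began with no read. MA_7195626g0010 had 0 reads in the 3 IAA libraries at 5 days, 6.14, 11.0 and 8.01 CPM at 10 days, and 89.5, 118 and 125 CPM at 15 days. Against a floor of 3 reads over the group the level at 15 days was at least 1791-fold higher than at 5 days (edgeR adjusted p = 6.2e-10, fitted log2 change 13.75 ± 1.07 SE, which depends on the prior count and is no bound). Under BAP+IAA it stood at 3.96, 0.688 and 0.778 CPM at 5 days, 41.5, 117 and 65.1 CPM at 10 days and 22.1, 9.98 and 31.1 CPM at 15 days. It was thus highest at 10 days with both hormones and at 15 days with IAA alone, and no day overlapped another in either course. It rose from 5 to 10 days under the combination (5.44 ± 0.54, adjusted p = 4.3e-07) and fell from 10 to 15 days (-1.83 ± 0.40, adjusted p = 0.0055), while under IAA the later step was a rise (3.72 ± 0.44, adjusted p = 1.5e-05). The change from 5 to 15 days under the combination was smaller than under IAA (difference -10.13 ± 1.98, adjusted p = 0.0012).

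MA_9396827g0010, which also had the next largest value of the smaller of i and c, took a similar course under IAA. It had 0 reads with IAA at 5 days, 7.06, 11.4 and 14.4 CPM at 10 days, and 72.9, 95.1 and 163 CPM at 15 days, at least 1756-fold higher than at 5 days (fitted log2 change 13.74 ± 1.58 SE, edgeR adjusted p = 2e-07). Under both hormones it stood at 4.44, 0.5002 and 0.467 CPM, then 18.3, 106 and 95.8 CPM, then 11.2, 10.2 and 47.4 CPM, so that the later days overlapped and the change from 10 to 15 days did not pass (-1.70 ± 0.59, edgeR adjusted p = 0.075). The difference between the changes was -9.98 ± 2.97 (adjusted p = 0.027). Both members held similar levels group by group, and whether they are copies of one gene is not known.

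Under the combination the largest rise belonged to MA_186946g0010. It stood at 0, 0 and 0.415 CPM at 5 days, 7.10, 1.10 and 2.04 CPM at 10 days and 51.7, 1.18 and 7.59 CPM at 15 days, where 1 of the 3 libraries held most of the level. The rise from 5 to 15 days was 6.94 ± 1.21 on the log2 scale (SE, edgeR adjusted p = 0.00013), 4.66 without replicate 1 at 15 days and 11.29 without replicate 3 at 5 days. With IAA it was at 7.59, 25.6 and 19.1 CPM at 5 days, 698, 603 and 538 CPM at 10 days and 338, 363 and 198 CPM at 15 days. No combination library reached the IAA libraries of its day. Pooled over the days it was 10400-fold higher than Mock with IAA and 269-fold higher with the combination, so the IAA level was 38.6 times that with both hormones. Both folds over Mock rest on 4 Mock reads, all in replicate 1 at 15 days, and carry large counting error. MA_186946g0010 rose under IAA as well (4.08 ± 0.62, adjusted p = 6e-06), and the difference between the rises did not pass (2.86 ± 1.83, adjusted p = 0.35).

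MA_9532607g0010 rose in both treatments. With the combination it stood at 0, 0.125 and 0.0519 CPM at 5 days, 2.08, 2.56 and 4.46 CPM at 10 days and 10.5, 4.43 and 2.02 CPM at 15 days, a 98.5-fold rise to 15 days in pooled reads (exact 95% interval 33.3 to 481, fitted log2 change 6.41 ± 0.74 SE, edgeR adjusted p = 2.8e-08). With IAA it stood at 0.607, 0.274 and 0 CPM, then 3.88, 1.99 and 2.26 CPM, then 7.68, 5.08 and 5.39 CPM (4.37 ± 0.56, adjusted p = 2.5e-08). The first day was below the later days in every library of both courses. The difference between the rises was 2.05 ± 1.498 and did not pass (adjusted p = 0.43).

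MA_58978g0010 went opposite ways. Given both hormones, it stood at 6.35, 11.9 and 1.97 CPM at 5 days, at 0, 0.122 and 0 CPM at 10 days, and had 0 reads at 15 days, at least 95.6-fold lower than at 5 days (fitted log2 change -9.68 ± 2.05 SE, edgeR adjusted p = 0.0011). With IAA it stood at 0.455, 0.594 and 0.435 CPM at 5 days, 1.13, 6.14 and 0.178 CPM at 10 days and 16.7, 0.551 and 8.92 CPM at 15 days (4.08 ± 0.92, adjusted p = 0.00083). The IAA days overlapped, since replicate 2 at 15 days stayed at the 5-day level. The difference between the changes was -13.76 ± 2.12 (adjusted p = 6.8e-05).

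**Figure D5:**
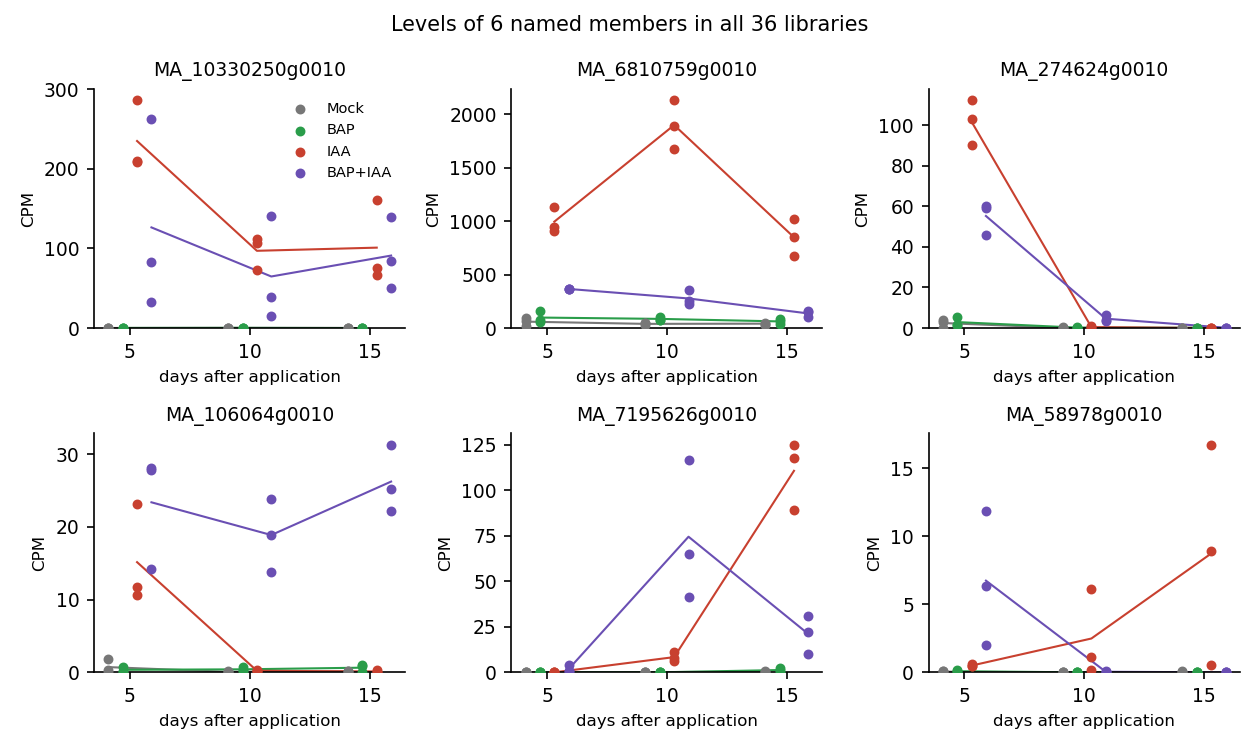
Levels (CPM) of 6 named members in all 36 libraries against the day of collection, with a line through the mean of the 3 libraries of each treatment. MA_106064g0010 stays between 13.8 and 31.3 CPM with BAP+IAA while it drops below 0.3 CPM with IAA, and MA_7195626g0010 peaks at 10 days with BAP+IAA and at 15 days with IAA.

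Whether the combination ran a different course from IAA was tested for every model as the change of the log2 difference between them. From 5 to 10 days the difference moved in favour of the combination at 47 members and against it at 19 (edgeR adjusted p under 0.05), where 5.2% and 6.57% of all tested models moved these ways. From 5 to 15 days it moved in favour at 51 and against at 28 (5.61% and 6.99% of all tested models). In shares of the 200, these are 25.5% and 14% at 15 days. Leaving out replicate 3 of the 5-day combination gave 8 and 14 members against at 10 and 15 days. Leaving out replicate 3 of the 10-day combination gave 12 against at 10 days, and DESeq2 called 18 against at 15 days. Among the 751 models with c under 2, 42 (5.59%) moved in favour of the combination and 119 (15.8%) against it from 5 to 15 days. Whether the lists differ in this was not tested.

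The largest move in favour was that of MA_106064g0010, the member with the highest ratio of the combination to IAA, 4.64 in pooled levels. With the combination it was at 14.2, 28.1 and 27.9 CPM, then 18.9, 23.9 and 13.8 CPM, then 22.2, 31.3 and 25.2 CPM. With IAA it stood at 23.1, 10.7 and 11.7 CPM at 5 days, at 0.283, 0.12 and 0.237 CPM at 10 days and at 0.293, 0 and 0.0691 CPM at 15 days. The treatments overlapped at 5 days and were far apart afterwards. The fall under IAA was -6.81 ± 0.67 on the log2 scale (SE, edgeR adjusted p = 4.3e-10), the change under the combination was 0.16 ± 0.30 (adjusted p = 0.75), and the difference was 6.96 ± 0.78 (adjusted p = 1.7e-07). After 5 days its IAA level was in the range of the Mock libraries, which held 0 to 1.85 CPM.

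MA_72344g0010 took a like course at a lower level. With IAA it stood at 8.65, 7.18 and 10.7 CPM at 5 days, 0.565, 0.241 and 0.89 CPM at 10 days and 0.293, 0.306 and 0.346 CPM at 15 days (log2 change from 5 to 15 days -4.76 ± 0.41 SE, edgeR adjusted p = 2.3e-09). In the BAP+IAA libraries it stood at 2.05, 1.25 and 1.30 CPM, then 3.40, 4.09 and 1.98 CPM, then 1.71, 2.63 and 3.54 CPM (0.78 ± 0.36, adjusted p = 0.13). The order of the treatments was reversed between 5 days, when IAA was higher in every library, and the later days, when the combination was. The difference between the changes was 5.54 ± 0.58 (adjusted p = 8.4e-07). Mock held 1 read and BAP 2 reads over 9 libraries each.

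There were 2 pairs of members with a shared identifier stem, which were picked out after their values were seen. MA_127832g0010 and MA_127832g0020 are the only models of their stem in the table. Under IAA the first held 24.5 ± 1.47, 1.005 ± 0.471 and 0.712 ± 0.355 CPM on the 3 days, and the second 7.46 ± 0.544, 0.326 ± 0.17 and 0.187 ± 0.104 CPM (SD, n = 3 each). With the combination they stood at 15.4 ± 9.16, 6.02 ± 3.8 and 5.24 ± 3.98 CPM, and at 5.69 ± 3.2, 2.3 ± 0.668 and 2.13 ± 1.87 CPM. Both fell in both treatments, and less under the combination, by a difference of 3.50 ± 0.82 and 3.79 ± 0.89 on the log2 scale from 5 to 15 days (SE, edgeR adjusted p = 0.0044 and 0.0034). MA_10436004g0010 and MA_10436004g0020, from a stem of 4 models, moved the other way under IAA. The first rose from 1.56 ± 1.15 to 11.7 ± 3.18 CPM and the second from 4.02 ± 2.85 to 24.4 ± 5.71 CPM between 5 and 15 days (SD, n = 3 each). Their changes under the combination did not pass, and the differences of -2.40 ± 0.60 and -2.09 ± 0.68 did (adjusted p = 0.0077 and 0.041). Models of 1 stem may share reads in the counting, so a pair is not 2 independent cases.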

How the data were processed

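Per the labels and the values, the deposited table holds unnormalised whole-number read counts for each gene model. The submitters' processing notes name Trimmomatic, STAR and HTSeq and give no versions. No genome build, annotation or strand setting is given in the sources used here, so antisense or overlapping models and near-identical copies cannot be told apart.

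In R 4.3.3, edgeR 4.0.16 kept 38239 models (filterByExpr, 12 groups), applied TMM factors of 0.944 to 1.07, and fitted 1 robust quasi-likelihood model with 12 group means to all 36 libraries (24 residual degrees of freedom). Tests were 2-sided with Benjamini-Hochberg adjustment over all tested models at 0.05, and SE is the log2 change divided by the square root of F. The steps were tested on simulated data. Library depth ran from 12531117 to 22280720 reads. The floor was set at 3 reads, and intervals and floors cover counting error only. Levels are TMM-scaled CPM. No 2 libraries of a group agreed within sampling noise (lowest chi-square per degree of freedom 6.74).

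Named members are the 2 with the largest smaller value of i and c, the 2 most abundant under IAA, those at the limits, and the 2 largest rises and falls per tested 5-to-15-day contrast that average at least 1 CPM and, within a treatment, have days that do not overlap. Members and lists were chosen with earlier results of these data known. Alternatives were RLE factors, total counts, no filter, DESeq2 1.42.0, a replicate block, each library left out, and other forms of the rule. Replicate numbers were not used to pair libraries in the main fit.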

Additional observations from a re-analysis of the deposited data

Results flagged for a closer look

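The change of the difference between BAP+IAA and IAA was tested for itself, and every result given here is a difference between the day courses of these treatments that passed edgeR's adjusted threshold. From 5 to 10 days it moved in favour of the combination at 47 members and against it at 19, and from 5 to 15 days at 51 and 28. The largest moves in favour were 6.96 on the log2 scale at MA_106064g0010 and 5.54 at MA_72344g0010, both of which fell under IAA and had no called change under the combination. The largest moves against were -13.76 at MA_58978g0010 and -10.13 at MA_7195626g0010, each with no read in 1 of the 4 groups compared, so that the size of the fitted value depends on the prior count. Samples that lie far from the rest of their group were not sought, since each group holds 3.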

How the results depend on the processing

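Of the 108 recounts under RLE factors, total counts, no filter, DESeq2, a replicate block or another form of the rule, 98 stayed within 1.5 times the reported count, and the 12 named changes kept direction and call in all settings. The exceptions were DESeq2, with 6 rises and 8 falls for IAA from 10 to 15 days, 6 rises for the combination from 10 to 15 days, 5 rises and 16 falls for Mock, 51 rises and 19 falls for BAP and 18 members against the combination from 5 to 15 days, the replicate block, with 2 rises in Mock, and the rule on 5 days alone, which found 426 models, 130 of them members. The cause was not tested. Only members were recounted under other settings or with a library left out, so these counts have no share of all tested models beside them. The rule on 10 or 15 days alone found 156 and 143 models, 92 and 81 of them members. A pseudocount of 0.1 found 200 with 130 members, and a pseudocount of 1 found 168 with 135 members. The median in place of the mean found 175 with 121 members. The limit of 200 was lifted for the single days and kept for the pseudocounts and the median, where the number found could not exceed it. Libraries with the same replicate number were slightly more alike than others. Their deviations correlated at a median r of 0.054, up to 0.28 and over 0.1 in 59 of 198 pairs. Pairs with other numbers had a median r of -0.032. A weak shared effect of the replicate number is thus possible and was left out of the main fit. The block changed no other call by over 1.5 times.

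With each library left out in turn, IAA rises and falls ran from 42 to 53 and 70 to 83 (5 to 10 days), 6 to 16 and 11 to 27 (10 to 15 days), and 46 to 52 and 77 to 86 (5 to 15 days). For the combination they ran from 19 to 28 and 18 to 40, 5 to 24 and 16 to 35, and 31 to 51 and 53 to 74. From 5 to 15 days Mock gave 0 to 1 and 7 to 12, and BAP 14 to 31 and 9 to 13. Members in favour of and against the combination numbered 42 to 51 and 8 to 24 to 10 days, and 39 to 55 and 14 to 30 to 15 days. The rule found 197 to 200 models, 179 to 199 of them members. Its limit of 200 was kept in these runs, so the number found could not go higher. The lower quartile of member levels in Mock, 0.0754 CPM at 5 days, is under the 3-read floor of a library, so ratios to Mock carry large counting error there.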
